A study of Mus musculus with 18 samples.

Results

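The 9 genes described here move vitamin A derivatives through the retina or turn them into signals. They were Rdh12, Rdh8, Abca4, Rbp3, Rlbp1, Crabp1, Crabp2, Aldh1a1 and Aldh1a3, and were taken as the rows that carry these gene names in both deposited tables. Every name matched 1 row, so that the set made up 9 of 34385 genes in the knockdown table and 9 of 34396 genes in the overexpression table. A filter on low values was passed by 8 of the 9 in each table and not by Rdh8.

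Light turns the retinal bound to opsin into its all-trans form, which photoreceptors must clear and which other cells turn back into the cis form. Within photoreceptors ABCA4 moves retinal out of the disc membrane and retinol dehydrogenases such as RDH8 and RDH12 reduce it to retinol. The secreted protein IRBP, encoded by Rbp3, carries retinoids between photoreceptors and their neighbours, and CRALBP, encoded by Rlbp1, binds the cis form in Müller glia and the pigment epithelium. A separate branch oxidizes retinal to retinoic acid through enzymes such as ALDH1A1 and ALDH1A3, and CRABP1 and CRABP2 bind that acid in the cytoplasm. In the mouse eye Aldh1a1 is known for its dorsal and Aldh1a3 for its ventral retinal expression during development.

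On GRCm38 with the GENCODE M21 annotation, the photoreceptor genes are Rdh12 at chr12:79208914-79222665 (plus strand), Rdh8 at chr9:20818503-20826117 (plus), Abca4 at chr3:122044443-122180123 (plus) and Rbp3 at chr14:33954003-33964216 (plus). Rlbp1 is at chr7:79374870-79387048 (minus). Crabp1 is at chr9:54764748-54773110 (plus) and Crabp2 at chr3:87948666-87953376 (plus), and Aldh1a1 is at chr19:20492715-20643465 (plus) and Aldh1a3 at chr7:66390890-66427517 (minus). The tables give 1 value per gene and do not part its exons or transcripts.

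The study asked what happens to gene expression in the young mouse retina when Nmnat1 or Nmnat2, which encode enzymes that make NAD, is lowered or raised. Retinas of ICR mice, an outbred stock, received plasmids by electroporation at postnatal day 0.5, along with a plasmid for EGFP, and were then cultured as explants for 3 days. The 6 groups of 3 libraries were Nmnat1 knockdown, Nmnat2 knockdown and their control with a scramble plasmid, and Nmnat1 overexpression, Nmnat2 overexpression and their control with an empty vector. RNA came from EGFP-positive cells sorted by FACS, which are a mixture of the retinal cell types that took up plasmid, and 1 ng of it was amplified per library. All groups carried the EGFP plasmid and had been electroporated and cultured, and no untreated retina is among them. The title of 1 Nmnat2 knockdown sample and 1 Nmnat2 overexpression sample names Nmnat3, while their other labels name Nmnat2, which was followed. Nothing in the labels ties the libraries of a group to different animals, so a p-value here reflects variation among libraries that may be only technical.

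Levels are given in ppm, the share of a column's sum of the deposited, length-scaled signal multiplied by 1000000, so that genes can be set side by side. Differences are log2 fold changes of ppm + 1 with their SE, tested with limma on all genes of a table and adjusted by the Benjamini-Hochberg method within each comparison, with a threshold of 0.05. From steps in low values, the relative depth of the knockdown libraries was 0.738 to 1.30 and that of the overexpression libraries 0.804 to 1.13. Nmnat1 stood at 7.80 ± 0.642 ppm in Nmnat1 knockdown and 19.0 ± 1.99 ppm in scramble cells (SD, n = 3 each), groups that did not overlap, with a log2 difference of -1.18 ± 0.25 (limma adjusted p = 0.130). That fall did not pass with all libraries, and passed without the Nmnat2 knockdown library N2_2 (limma adjusted p = 0.0041), in a fit of the 2 groups alone (0.019) and with array weights (0.0096), and in none of the other 16 alternatives. Nmnat2 stood at 0.927 ± 0.390 ppm in Nmnat2 knockdown and 2.96 ± 2.91 ppm in scramble cells (limma adjusted p = 0.476). These groups overlapped, with scramble library C2 at 0.624 ppm and C1 at 6.22 ppm. The log2 difference was -0.79 with all libraries and -0.22 without C1, and it passed in none of 18 other fits. The overexpressed genes stood 9.73 ± 0.21 (Nmnat1) and 12.90 ± 0.24 (Nmnat2) log2 units above the empty vector. The other gene of the pair also lay wholly above the empty vector in each arm, without passing. Nmnat1 was at 42.4 ppm in Nmnat2 overexpression against 20.8 ppm (log2 difference 0.99, limma adjusted p = 0.0733). Nmnat2 was at 5.23 ppm in Nmnat1 overexpression against 1.89 ppm (1.10, limma adjusted p = 0.122). Library N2_2 of the Nmnat2 knockdown group lay at 129 on the first principal component and the other 8 libraries of its table between -31.2 and -5.83, and mitochondrial genes made up 6.51% of its signal, against at most 4.67% in the others. In the overexpression table the 3 libraries numbered 1 lay at 33.9 (Nmnat1), 91.4 (Nmnat2) and 24.5 (empty vector) and the others between -50.0 and -4.14. Results are therefore also given without these libraries.

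The knockdowns of Nmnat1 and Nmnat2 each had 1 member past the threshold, and not the same one. Both calls were lost when any 1 library other than N2_2 was left out, and with median-of-ratios scaling no member passed in either knockdown. In Nmnat1 knockdown cells Crabp1, the retinoic acid binding protein, was the 1 member of 8 that passed the test, in a comparison in which 0.144% of all genes did. Its mean was 3.00-fold below scramble, and Rlbp1, Abca4 and Aldh1a1 also lay below every scramble library without passing. In Nmnat2 knockdown cells the 1 member that passed was the photoreceptor enzyme gene Rdh12, where 0.436% of all genes did. Between the knockdowns both of these genes differed, with Crabp1 lower and Rdh12 higher in Nmnat1 knockdown than in Nmnat2 knockdown, in a contrast that called 2.06% of all genes. Under overexpression no member passed, where 0.121% of all genes did for Nmnat1 and 0.55% for Nmnat2, although Rdh12 and Rbp3 were below every empty vector library in both arms. Between the arms none passed either, where 0.0193% of all genes did. With a block for the replicate number, Rdh12 passed against the empty vector in both arms, where 187 (Nmnat1) and 269 (Nmnat2) of 20725 genes did.

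Counted by separation alone, 4 of the 9 members lay wholly below scramble in Nmnat1 knockdown, where 12% of all tested genes did, and none lay wholly above, where 12.8% did. In Nmnat2 knockdown 5 of 9 lay wholly below scramble, against 17.2% of all genes, and Crabp1 lay wholly above, against 4.73%. In Nmnat1 overexpression 3 of 9 lay wholly below the empty vector, against 10.1% of all genes, and Aldh1a3 lay wholly above, against 7.74%. In Nmnat2 overexpression 2 of 9 lay wholly below, against 7.73%, and none above, against 8.6%. Nmnat1 knockdown lay wholly above Nmnat2 knockdown in 2 members (19% of all genes) and wholly below in 1 (6.37%), and Nmnat1 overexpression lay wholly below Nmnat2 overexpression in 1 (5.22%) and above in none (3.12%). As counts, the lower members made up a larger share than the lower genes of the whole table in each comparison with a control, while 1 of 9 higher in Nmnat1 overexpression is near the rate of all genes. The set was not tested, and its members are not independent of each other. Rdh12 and Rbp3, the 2 lower in Nmnat2 overexpression, correlated at r = 0.918 in that table (9 libraries). The 9 also include Rdh8, while the shares of all genes are over those that passed the filter. At an unadjusted limma p under 0.05, the lower members numbered 3 in Nmnat1 knockdown (5.64% of all genes), 4 in Nmnat2 knockdown (13.4%), 3 in Nmnat1 overexpression (5.13%) and 2 in Nmnat2 overexpression (5.27%). No member was higher at that p, where 4.88%, 3.41%, 4.44% and 5.01% of all genes were, in the same order of comparisons. The median log2 difference of the 8 tested members was -0.59 in Nmnat1 knockdown, -0.81 in Nmnat2 knockdown, -0.30 in Nmnat1 overexpression and -0.10 in Nmnat2 overexpression. Over all genes it was -0.0034, -0.23, -0.039 and 0.056. The -0.23 of all genes in Nmnat2 knockdown became -0.045 with median-of-ratios scaling, under which the median of the members was -0.57.

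More members and more genes of the whole table passed when the libraries that stood apart were left out. These were picked after the values were seen. That left 2 libraries in Nmnat2 knockdown, N2_1 and N2_3, with rod sums of 2126 and 2127 ppm, and 2 in each overexpression group. The spread then rests on few libraries whose differences may be only technical. Genes called went from 97 to 3331 in Nmnat2 knockdown and from 25 to 1666 in Nmnat1 overexpression. Without N2_2, 2 members fell in Nmnat1 knockdown (Crabp1 and Rlbp1), where 3.49% of all genes fell and 4.61% rose. Without it 4 members fell in Nmnat2 knockdown (Rdh12, Abca4, Rlbp1 and Crabp2), where 7.25% of all genes fell and 7.73% rose. Between the knockdowns 2 members were then higher with Nmnat1 (Rdh12 and Rbp3, 6.28% of all genes) and 2 lower (Crabp1 and Rlbp1, 6.78%). Without the 3 overexpression libraries numbered 1, Rdh12 and Rbp3 fell in both arms, where 3.61% (Nmnat1) and 2.62% (Nmnat2) of all genes fell. Crabp1 then rose with Nmnat1 and Rlbp1 with Nmnat2, where 4.43% and 3.27% of all genes rose, and no member differed between the arms, where 0.183% of all genes did.

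**Figure D1:**
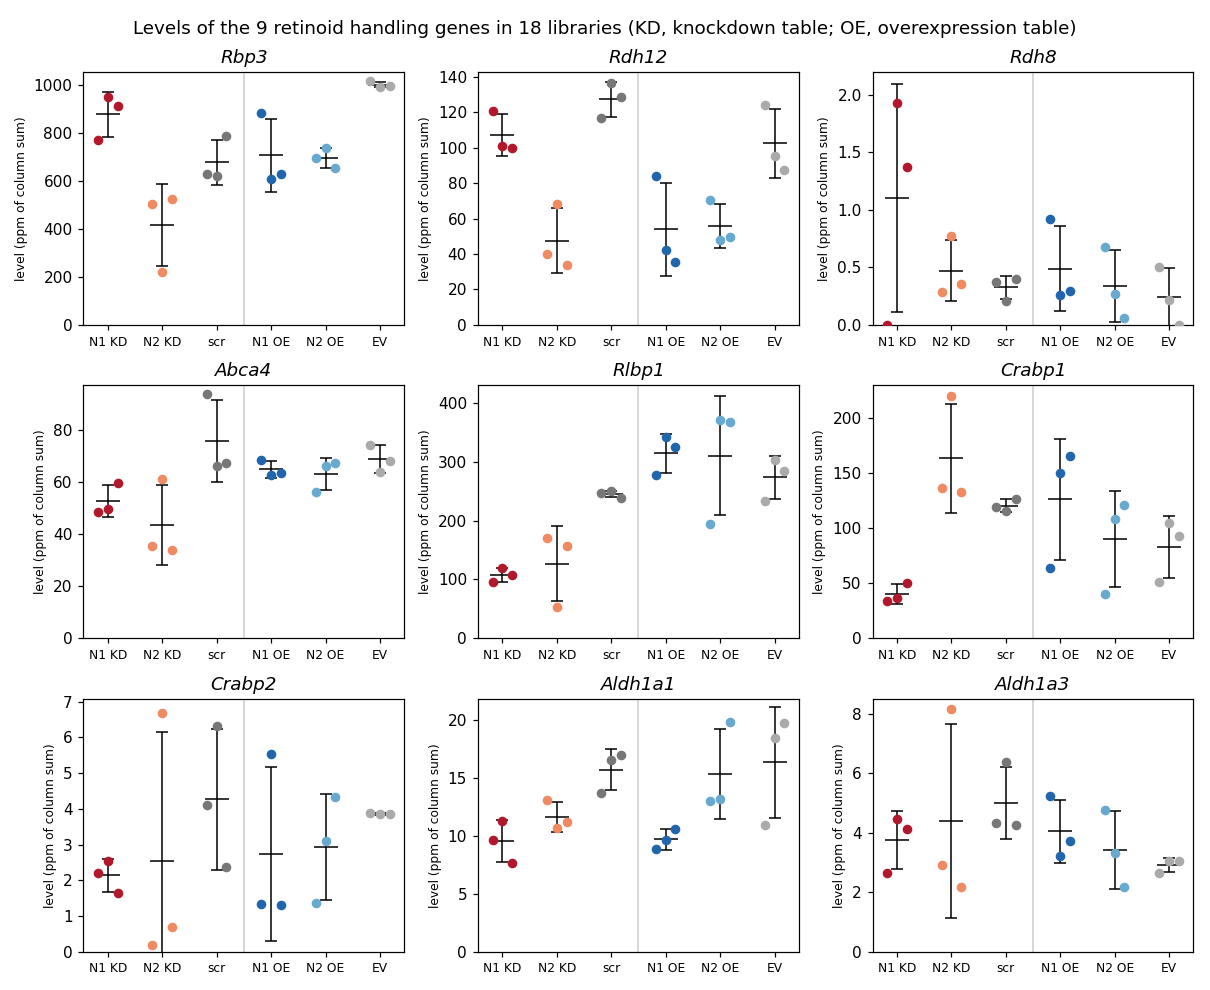
Level of each of the 9 genes in ppm of the column sum, in each of the 18 libraries (points), with the group mean (bar) and SD (whiskers, not drawn below 0). From the left the groups are Nmnat1 knockdown (N1 KD), Nmnat2 knockdown (N2 KD), scramble (scr), Nmnat1 overexpression (N1 OE), Nmnat2 overexpression (N2 OE) and empty vector (EV), and the grey line parts the 2 tables. Crabp1 is low in all 3 Nmnat1 knockdown libraries, and Rdh12 is low in Nmnat2 knockdown and in both overexpression groups.

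The levels of the members spanned from about 1000 ppm to under 1 ppm. In scramble cells Rbp3 stood highest at 677 ± 93.6 ppm, followed by Rlbp1 at 245 ± 5.52 ppm, Rdh12 at 127 ± 9.96 ppm, Crabp1 at 120.3 ± 5.69 ppm, Abca4 at 75.6 ± 15.7 ppm, Aldh1a1 at 15.7 ± 1.78 ppm, Aldh1a3 at 4.99 ± 1.21 ppm, Crabp2 at 4.27 ± 1.98 ppm and Rdh8 at 0.326 ± 0.101 ppm (SD, n = 3). The neighbours Rdh12 and Crabp1 overlapped, as did Aldh1a3 and Crabp2. In empty vector cells Rbp3 stood at 1000.2 ± 11.4 ppm, Rlbp1 at 274 ± 36.1 ppm, Rdh12 at 102 ± 19.4 ppm, Crabp1 at 82.9 ± 27.9 ppm, Abca4 at 68.7 ± 5.22 ppm, Aldh1a1 at 16.4 ± 4.79 ppm, Crabp2 at 3.86 ± 0.023 ppm, Aldh1a3 at 2.92 ± 0.245 ppm and Rdh8 at 0.241 ± 0.254 ppm (SD, n = 3). There Rdh12, Crabp1 and Abca4 overlapped with their neighbours in this order, and Crabp2 and Aldh1a3 changed places.

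Of the 5 members that lay wholly below scramble in Nmnat2 knockdown, Rbp3, Abca4 and Rdh12 are photoreceptor genes, and their promoters are shown. Rlbp1 and Aldh1a1 lay wholly below it too, and their promoters are not shown. The sequences run from 250 bases before to 50 bases after the start site and come from RefSeq on GRCm38.p6, which held 8 entries for 7 of the members. Capitals mark matches on either strand to TAATCC, the core bound by the photoreceptor factor CRX, or to TGCTGA, an element bound by the rod factor NRL. The promoters lie on the plus strand at chr12:79208663-79208962 (Rdh12), chr14:33953753-33954052 (Rbp3) and chr3:122044210-122044509 (Abca4).
Rdh12: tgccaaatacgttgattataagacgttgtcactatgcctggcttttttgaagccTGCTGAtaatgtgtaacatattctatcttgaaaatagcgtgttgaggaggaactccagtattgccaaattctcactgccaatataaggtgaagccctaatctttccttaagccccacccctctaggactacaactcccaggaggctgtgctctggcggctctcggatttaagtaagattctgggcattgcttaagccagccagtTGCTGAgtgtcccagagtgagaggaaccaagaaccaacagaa
Rbp3: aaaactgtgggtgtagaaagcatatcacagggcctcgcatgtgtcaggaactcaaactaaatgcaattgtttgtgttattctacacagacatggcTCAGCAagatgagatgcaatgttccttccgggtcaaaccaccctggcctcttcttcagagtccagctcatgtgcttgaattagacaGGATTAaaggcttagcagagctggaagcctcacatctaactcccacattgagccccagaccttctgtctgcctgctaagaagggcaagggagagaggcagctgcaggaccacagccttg
Abca4: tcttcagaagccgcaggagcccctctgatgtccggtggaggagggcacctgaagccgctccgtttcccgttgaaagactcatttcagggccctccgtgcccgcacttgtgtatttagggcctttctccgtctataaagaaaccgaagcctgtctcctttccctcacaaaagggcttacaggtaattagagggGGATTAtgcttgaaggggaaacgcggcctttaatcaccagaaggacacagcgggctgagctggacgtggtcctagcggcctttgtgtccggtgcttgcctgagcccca
The promoters of Rbp3 and Abca4 each hold the CRX core once, read from the other strand, starting at position -69 (Rbp3) and -58 (Abca4) from the start site. That of Rdh12 holds none of these and 2 NRL elements, at -196 and 8, and that of Rbp3 holds 1 at -155. That of Abca4 holds no NRL element. Among the entries not shown, the NRL element is in Rlbp1 (-250), in Rdh8 (5 and 18) and in entry 2 of Aldh1a1 (4). It is thus not particular to the photoreceptor genes. Of all 32851 promoters held there, 7.06% carry the CRX core and 19.5% the NRL element, against 2 and 5 of the 8 member entries. The motif AGGTCA, an element of retinoic acid and other nuclear receptors, is in 16.3% of all promoters and in none of the 8 entries. These counts describe letters and not binding.

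Rdh12 encodes an enzyme of photoreceptor inner segments that reduces retinal, and its loss causes retinal degeneration in people. It stood at 121, 101 and 99.9 ppm in Nmnat1 knockdown and at 39.8, 68.3 and 34.0 ppm in Nmnat2 knockdown, against 117, 137 and 129 ppm in scramble. All 3 Nmnat2 knockdown libraries were thus below every other library of the table, whereas Nmnat1 knockdown overlapped scramble. The mean was 2.69-fold lower in Nmnat2 knockdown than in scramble, and the log2 difference was -1.47 ± 0.25 (limma adjusted p = 0.0382). It was -0.25 ± 0.25 in Nmnat1 knockdown (limma adjusted p = 0.759), and Nmnat1 knockdown stood 1.22 ± 0.25 above Nmnat2 knockdown (limma adjusted p = 0.0344).

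The fall of Rdh12 in Nmnat2 knockdown kept its direction in 19 of 19 other fits but passed the threshold in only 5. Without library N2_2 it was larger, at -1.76 (limma adjusted p = 3.9e-05). Without any 1 other library it no longer passed, with an adjusted p of 0.112, 0.163 and 0.153 without C1, C2 and C3 of scramble, 0.0921, 0.104 and 0.106 without N1_1, N1_2 and N1_3 of Nmnat1 knockdown, and 0.132 and 0.151 without N2_1 and N2_3. It also no longer passed with median-of-ratios scaling (-1.23, adjusted p = 0.102) or in a fit of the 2 groups alone (adjusted p = 0.241). The difference in Rdh12 between the knockdowns likewise passed without N2_2 (1.51, adjusted p = 4.8e-05) and not without any other single library (adjusted p = 0.0603 to 0.152).

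Under overexpression Rdh12 was at 83.9, 42.3 and 35.5 ppm with Nmnat1 and at 70.3, 47.8 and 49.7 ppm with Nmnat2, against 124, 95.4 and 87.6 ppm in the empty vector. Every library of both arms lay below every control library, and within each group the library numbered 1 was the highest. The log2 difference was -0.999 ± 0.28 with Nmnat1 (limma adjusted p = 0.231) and -0.87 ± 0.28 with Nmnat2 (limma adjusted p = 0.285), so neither passed. Without the 3 libraries numbered 1 both passed, at -1.22 (limma adjusted p = 0.0014) and -0.89 (limma adjusted p = 0.0053). Both also passed in a fit with a block for the replicate number, although no label says that the numbers pair samples. Both arms share the 3 control libraries, and between the arms themselves the difference was -0.13 ± 0.28 (limma adjusted p = 0.967).

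Rdh12 went with the rod markers. The summed level of 10 rod markers was 6300.0 to 6350.4 ppm in Nmnat1 knockdown, 2126 to 3885 ppm in Nmnat2 knockdown and 5591 to 5995 ppm in scramble. It was 2899 to 4987 ppm in Nmnat1 overexpression, 2834 to 3830.0 ppm in Nmnat2 overexpression and 5777 to 6118 ppm in the empty vector. No rod marker was at 0 throughout a group. Of the 9 rod markers tested, 3 fell in Nmnat2 knockdown and 1 in Nmnat2 overexpression at the threshold, and none did in Nmnat1 knockdown or Nmnat1 overexpression, where 1 and 6 were lower at an unadjusted limma p under 0.05. Over all genes, 0.436% passed in Nmnat2 knockdown and 0.55% in Nmnat2 overexpression. Of 8 cone markers tested, 2 fell in Nmnat2 knockdown and 3 in Nmnat2 overexpression, and their sum correlated with Rdh12 at r = 0.756 in the knockdown and 0.836 in the overexpression table (9 libraries each). Across the 9 libraries of a table, which share their groups, Rdh12 correlated with the rod sum at r = 0.964 (knockdown) and 0.948 (overexpression), on the log scale and given as a description. With the sum of 7 bipolar markers r was 0.869 (knockdown) and 0.765 (overexpression), and with the amacrine sum -0.787 and -0.929. The part of these cell type shares in the result was not tested. In a sorted mixture fewer cells of a type and less RNA per cell cannot be told apart.

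Rbp3 encodes the retinoid carrier of the space around photoreceptors and was the most abundant member. It stood at 770.2, 947 and 913 ppm in Nmnat1 knockdown and at 502, 218 and 525 ppm in Nmnat2 knockdown, against 626, 620.1 and 785 ppm in scramble. Nmnat2 knockdown lay wholly below scramble, with N2_2 by far the lowest, and Nmnat1 knockdown overlapped it. On the log2 scale the difference was 0.37 ± 0.30 in Nmnat1 knockdown (limma adjusted p = 0.699) and -0.80 ± 0.30 in Nmnat2 knockdown (limma adjusted p = 0.215). Without N2_2 the difference in Nmnat2 knockdown was -0.39 (limma adjusted p = 0.0535), and Nmnat1 knockdown then stood 0.76 above Nmnat2 knockdown (limma adjusted p = 0.0021), against 1.17 ± 0.30 with all libraries (limma adjusted p = 0.0804).

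In the overexpression table Rbp3 was at 880.05, 607 and 627 ppm with Nmnat1 and at 694, 737 and 653 ppm with Nmnat2, against 1013, 992 and 996 ppm in the empty vector. The control libraries differed by little, and all 6 libraries of the arms were below them. This gave a log2 difference of -0.53 ± 0.14 in both arms (limma adjusted p = 0.180 with Nmnat1 and 0.146 with Nmnat2). Without the libraries numbered 1 it passed in both, at -0.69 (limma adjusted p = 0.0017) and -0.52 (limma adjusted p = 0.0056). Rbp3 followed the rod sum in the overexpression table (r = 0.949, 9 libraries) more closely than in the knockdown table (r = 0.517, 9 libraries), where N2_2 had the lowest Rbp3 and the highest rod sum of its group. With the sum of 7 bipolar markers r was 0.806 (knockdown) and 0.878 (overexpression). The part of the rod and bipolar shares was not tested here either.

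Abca4 encodes the transporter that flips retinal across disc membranes. It was at 48.6, 49.4 and 59.6 ppm in Nmnat1 knockdown and at 35.5, 61.1 and 34.0 ppm in Nmnat2 knockdown, against 93.7, 66.0 and 67.2 ppm in scramble. All 6 knockdown libraries lay below the 3 scramble libraries. In log2 terms the difference was -0.50 ± 0.26 in Nmnat1 knockdown (limma adjusted p = 0.537) and -0.82 ± 0.26 in Nmnat2 knockdown (limma adjusted p = 0.160). Without N2_2 the fall in Nmnat2 knockdown was -1.08 and passed (limma adjusted p = 0.0027).

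Under overexpression Abca4 overlapped its controls. It stood at 68.4, 62.6 and 63.4 ppm with Nmnat1 and at 55.9, 66.0 and 67.05 ppm with Nmnat2, against 74.2, 63.8 and 68.1 ppm in the empty vector. As a log2 difference this came to -0.08 ± 0.11 and -0.13 ± 0.11, with 95% intervals of ± 0.25 around each (limma adjusted p = 0.913 and 0.798). Whether Abca4 differed from Rdh12 and Rbp3 in this was not tested.

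Rdh8 encodes the outer segment counterpart of Rdh12 and was nearly undetected. It was at 0, 1.93 and 1.37 ppm in Nmnat1 knockdown, at 0.285, 0.773 and 0.351 ppm in Nmnat2 knockdown and at 0.374, 0.210 and 0.394 ppm in scramble. From the steps these are about 0, 36 and 24 reads, 5, 12 and 7 reads, and 9, 3 and 7 reads. The count of 0 in N1_1 allows up to 0.212 ppm at 3 reads, by counting error alone. In the overexpression table it was at 0.917, 0.258 and 0.294 ppm with Nmnat1 and 0.676, 0.264 and 0.063 ppm with Nmnat2, against 0.506, 0.217 and 0 ppm in the empty vector. Groups overlapped in each comparison with a control, with a two-sided exact permutation p of 0.4 for both Nmnat1 arms and 0.6 for both Nmnat2 arms, where 3 against 3 cannot give less than 0.1.

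**Figure D2:**
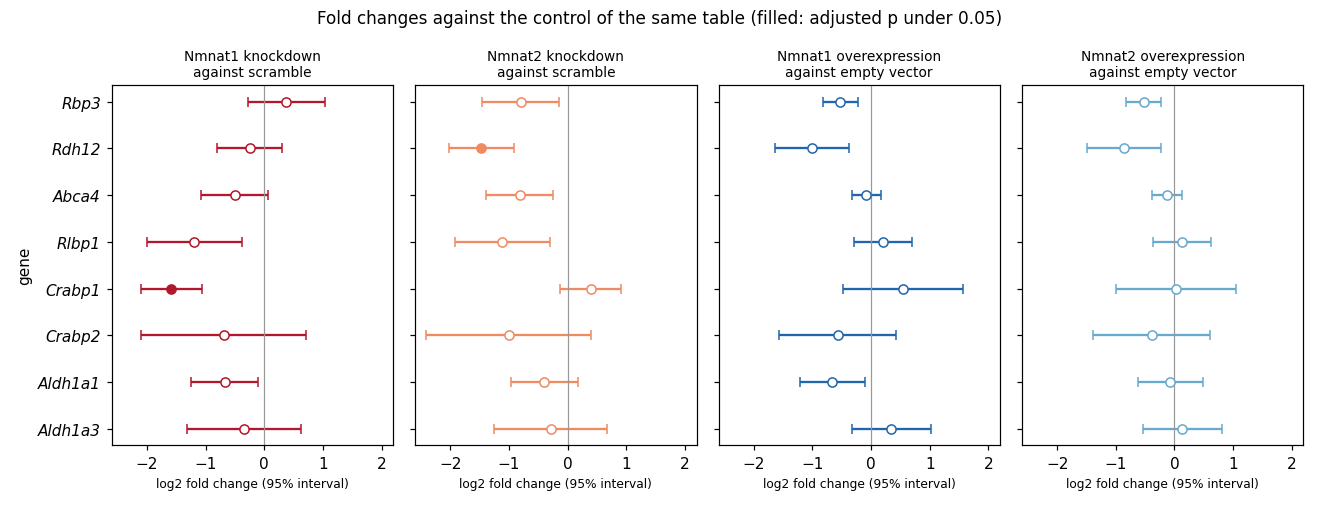
Log2 fold change of ppm + 1 of the 8 tested genes against the control of the same table, with the 95% interval from limma, 1 panel per comparison. Filled points passed an adjusted p of 0.05. Crabp1 in Nmnat1 knockdown (-1.58) and Rdh12 in Nmnat2 knockdown (-1.47) are the filled points, and no point in the overexpression panels is filled.

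Rlbp1 encodes the cis-retinal binding protein of Müller glia, the radial glia of the retina. It was at 95.4, 119 and 107 ppm in Nmnat1 knockdown and at 170.1, 53.5 and 158 ppm in Nmnat2 knockdown, against 246, 249.96 and 239 ppm in scramble. Both knockdowns lay wholly below a control that varied by little. The mean was 2.29-fold lower in Nmnat1 knockdown and 1.93-fold lower in Nmnat2 knockdown. The log2 difference was -1.19 ± 0.36 (limma adjusted p = 0.286) and -1.11 ± 0.36 (limma adjusted p = 0.172), so neither passed with all libraries at equal weight. The fall in Nmnat1 knockdown passed in 3 of 19 other fits, namely without N2_2, with the 2 groups alone and with array weights. That in Nmnat2 knockdown passed in 2 of 19, without N2_2 and with array weights.

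Much of the spread in Rlbp1 was that of N2_2. Without that library the SE was 0.092 in Nmnat1 knockdown, against 0.36 with it, and both comparisons passed, at -1.19 (limma adjusted p = 0.00014) and -0.58 (limma adjusted p = 0.0051). Nmnat1 knockdown was then also below Nmnat2 knockdown, by -0.61 (limma adjusted p = 0.0035), which is -0.08 ± 0.36 with all libraries (limma adjusted p = 0.932). The summed level of 10 Müller glia markers was 2478 to 2596 ppm in Nmnat1 knockdown and 2043 to 3231 ppm in Nmnat2 knockdown, against 4598 to 5295 ppm in scramble. Of the 9 tested, 1 fell at the threshold in Nmnat1 knockdown and 2 in Nmnat2 knockdown. No marker of the list was at 0 throughout a group, and its part in the result was not tested.

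In the overexpression table Rlbp1 was at 278, 342 and 325 ppm with Nmnat1 and at 194, 371 and 368 ppm with Nmnat2, against 233, 303 and 285 ppm in the empty vector. The groups overlapped, and in each the library numbered 1 was the lowest. On the log2 scale the difference was 0.21 ± 0.22 with Nmnat1 (limma adjusted p = 0.877) and 0.13 ± 0.22 with Nmnat2 (limma adjusted p = 0.907). Without the libraries numbered 1, Rlbp1 was higher in Nmnat2 overexpression by 0.33 (limma adjusted p = 0.018). The Müller sum was 4735 to 5594 ppm with Nmnat1, 3459 to 6251 ppm with Nmnat2 and 4884 to 5643 ppm in the empty vector, and Rlbp1 correlated with it at r = 0.946 in the knockdown and 0.922 in the overexpression table (9 libraries each). This was not particular to the Müller list. In the same order, r was 0.894 and 0.924 with the progenitor sum and 0.886 and 0.894 with the endothelium and pericyte sum. With the amacrine sum it was lower, at 0.337 and 0.657.

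Crabp1 encodes a cytoplasmic retinoic acid binding protein, which in the mouse retina is found in subsets of amacrine cells and in immature cells. It was at 33.4, 36.8 and 50.0 ppm in Nmnat1 knockdown and at 136, 219.8 and 133 ppm in Nmnat2 knockdown, against 119, 116 and 127 ppm in scramble. The 3 groups did not overlap: Nmnat1 knockdown was lowest, scramble was in the middle and Nmnat2 knockdown was highest. In reads estimated from the steps, the Nmnat1 knockdown libraries held about 215, 311 and 388, against 1336, 747 and 1012 in scramble. Such numbers cover counting error only, and not the error of amplifying 1 ng of RNA. The mean was 3.00-fold lower in Nmnat1 knockdown than in scramble, and the log2 difference was -1.58 ± 0.23 (limma adjusted p = 0.0437).

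The higher level in Nmnat2 knockdown did not pass the test, at 0.40 ± 0.23 (limma adjusted p = 0.425). Between the knockdowns Crabp1 was 4.07-fold lower with Nmnat1 than with Nmnat2, at -1.98 ± 0.23 (limma adjusted p = 0.0035), and this difference passed in 18 of 19 other fits. The exception was the deposited values with a pseudocount of 20 (adjusted p = 0.0998). The fall against scramble kept its direction in 19 of 19 other fits but passed in 7. Without N2_2 it passed with an adjusted p of 0.00023, and without any other single library it did not, with an adjusted p of 0.174, 0.216 and 0.192 without C1, C2 and C3, 0.218, 0.228 and 0.153 without N1_1, N1_2 and N1_3, and 0.0661 and 0.0553 without N2_1 and N2_3. With median-of-ratios scaling it was -1.59 (adjusted p = 0.0647), and in a fit of the 2 groups alone it passed (adjusted p = 0.00095).

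Several summed marker lists were lower in Nmnat1 knockdown beside Crabp1, and others were higher. The rod, pigment epithelium and microglia sums lay wholly above scramble there, the last at 20.5 to 26.5 ppm against 7.11 to 15.9 ppm. Crabp1 correlated in the knockdown table at r = -0.914 with the pigment epithelium sum, -0.850 with the microglia sum and 0.711 with the amacrine sum. In the overexpression table these were -0.791, 0.189 and 0.631. The sum of 10 amacrine markers was 273 to 298 ppm in Nmnat1 knockdown and 479 to 1134 ppm in Nmnat2 knockdown, against 489.5 to 514 ppm in scramble. Of the 10, 1 fell in Nmnat1 knockdown and 1 rose in Nmnat2 knockdown at the threshold. The sum of 8 progenitor markers was 121 to 140.4 ppm in Nmnat1 knockdown and 98.1 to 309 ppm in Nmnat2 knockdown, against 264 to 284 ppm in scramble, and of the 8 none passed in either knockdown. The sum of the Müller markers, given above, was also lower in both knockdowns, with 1 of 9 past the threshold in Nmnat1 knockdown. That of 5 endothelium and pericyte markers was 31.2 to 37.4 ppm in Nmnat1 knockdown and 15.8 to 72.2 ppm in Nmnat2 knockdown, against 54.0 to 64.8 ppm in scramble, and none of the 4 tested passed. No marker of these lists was at 0 throughout a group, and their part in the result was not tested. Library N2_2, which had the highest Crabp1 of the table, had the lowest amacrine and progenitor sums of its group and a cone marker sum of 4120 ppm, against 806 and 855 ppm in the other Nmnat2 knockdown libraries and 2245 to 2736 ppm in scramble.

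Under overexpression Crabp1 was at 63.6, 149.6 and 165 ppm with Nmnat1 and at 40.1, 108 and 121 ppm with Nmnat2, against 51.5, 105 and 92.4 ppm in the empty vector. Groups overlapped because the library numbered 1 was the lowest of each by far. This gave a log2 difference of 0.55 ± 0.46 with Nmnat1 (limma adjusted p = 0.817) and 0.03 ± 0.46 with Nmnat2 (limma adjusted p = 0.992). Without the libraries numbered 1 it was 0.67 with Nmnat1 and passed (limma adjusted p = 0.0089), and 0.21 with Nmnat2 (limma adjusted p = 0.276). The amacrine sum was 553 to 836 ppm with Nmnat1, 459 to 769 ppm with Nmnat2 and 353 to 366 ppm in the empty vector, and its part was not tested.

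Crabp2 encodes the CRABP family member that delivers retinoic acid to its nuclear receptors, and was low. It was at 2.22, 2.55 and 1.65 ppm in Nmnat1 knockdown and at 0.199, 6.69 and 0.694 ppm in Nmnat2 knockdown, against 4.11, 6.32 and 2.38 ppm in scramble. Library N2_2 alone was high in its group, and the groups overlapped. The log2 difference in Nmnat2 knockdown was -1.01 ± 0.63 (limma adjusted p = 0.455) and became -1.82 without N2_2 (limma adjusted p = 0.023), resting on 2 libraries with under 1 ppm. In Nmnat1 knockdown it was -0.69 ± 0.63 (limma adjusted p = 0.738).

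With overexpression Crabp2 was at 1.35, 5.54 and 1.30 ppm with Nmnat1 and at 1.37, 3.10 and 4.32 ppm with Nmnat2, against 3.89, 3.85 and 3.85 ppm in the empty vector. The control was even, while both arms scattered on either side of it. In log2 terms the difference was -0.57 ± 0.45 and -0.38 ± 0.45 (limma adjusted p = 0.799 and 0.859).

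Aldh1a1, the dorsal retinoic acid enzyme, was at 9.62, 11.3 and 7.67 ppm in Nmnat1 knockdown and at 13.1, 10.7 and 11.2 ppm in Nmnat2 knockdown, against 13.7, 16.5 and 17.0 ppm in scramble. All 6 knockdown libraries lay below the scramble libraries. As a log2 difference this came to -0.68 ± 0.26 in Nmnat1 knockdown (limma adjusted p = 0.393) and -0.40 ± 0.26 in Nmnat2 knockdown (limma adjusted p = 0.465). Leaving out N2_2 did not bring either past the threshold (limma adjusted p = 0.0859 and 0.368). In the overexpression table it was at 8.85, 9.66 and 10.6 ppm with Nmnat1 and at 13.05, 13.2 and 19.8 ppm with Nmnat2, against 10.9, 18.4 and 19.8 ppm in the empty vector. Nmnat1 overexpression lay wholly below the control and below Nmnat2 overexpression, with log2 differences of -0.66 ± 0.25 (limma adjusted p = 0.402) and -0.59 ± 0.25 (limma adjusted p = 0.953). Against the control the fall was -0.85 without the libraries numbered 1 (limma adjusted p = 0.0514).

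Aldh1a3, the ventral enzyme, was at 2.64, 4.47 and 4.13 ppm in Nmnat1 knockdown and at 2.91, 8.15 and 2.16 ppm in Nmnat2 knockdown, against 4.32, 6.39 and 4.27 ppm in scramble. Groups overlapped, with N2_2 again the highest of its group. The log2 difference was -0.34 ± 0.44 in Nmnat1 knockdown (limma adjusted p = 0.821) and -0.29 ± 0.44 in Nmnat2 knockdown (limma adjusted p = 0.786), and the second of these changed sign with quantile normalization. In the overexpression table it was at 5.23, 3.21 and 3.71 ppm with Nmnat1 and at 4.78, 3.31 and 2.19 ppm with Nmnat2, against 2.64, 3.05 and 3.07 ppm in the empty vector. Nmnat1 overexpression lay wholly above the control, at 0.35 ± 0.31 (limma adjusted p = 0.831), so Aldh1a3 and Aldh1a1 lay on opposite sides of it in that arm, which was not tested as a difference between the genes. The summed dorsal markers (5 genes) were 123 to 176 ppm with Nmnat1 overexpression and 112 to 149.7 ppm in the empty vector, and the summed ventral markers (5 genes) were 89.0 to 159.7 ppm with Nmnat1 overexpression and 96.3 to 113 ppm in the empty vector. In the knockdown table the dorsal sum was 88.0 to 111 ppm in Nmnat1 knockdown and 56.6 to 232 ppm in Nmnat2 knockdown, against 95.4 to 115 ppm in scramble. The part of position in the retina was not tested.

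**Figure D3:**
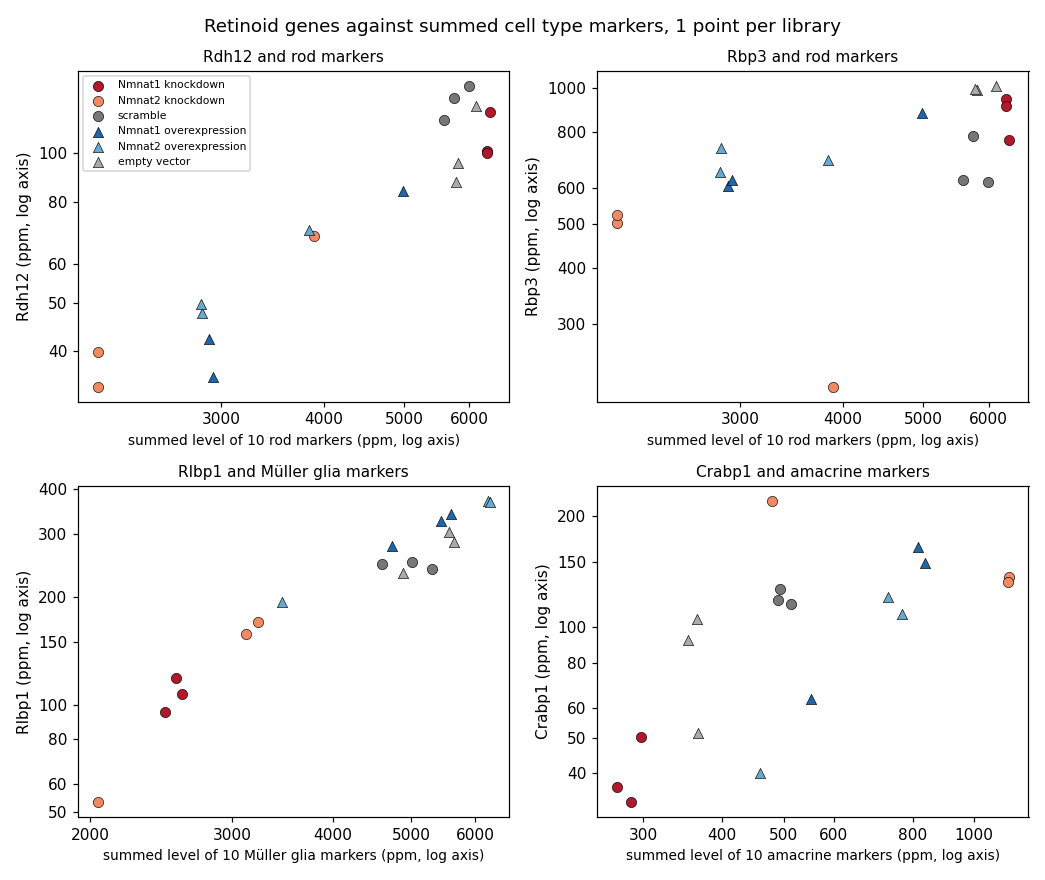
Level of Rdh12, Rbp3, Rlbp1 and Crabp1 (vertical, ppm, log axis) against the summed level of the markers of 1 cell type (horizontal, ppm, log axis), 1 point per library, with circles for the knockdown table and triangles for the overexpression table. Rdh12 and Rlbp1 follow the rod and Müller sums in both tables, whereas Rbp3 and Crabp1 have a Nmnat2 knockdown library (N2_2) far from the others. Sums of other marker lists, not drawn, also correlated with these genes.

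Across the 9 libraries of each table, the members did not rise and fall as 1 set. Rdh12 and Rbp3 correlated at r = 0.464 in the knockdown and 0.918 in the overexpression table, Rlbp1 and Crabp1 at 0.157 and 0.888, and Crabp2 and Aldh1a3 at 0.849 and -0.81. These values are over log2 levels and describe libraries that share their groups and, in the overexpression table, the offset of the libraries numbered 1. Among 9933 genes with at least 5 ppm on average in both tables, the genes most like a member were ranked by the smaller of the 2 correlations. Rdh12 was most like Prph2 (0.964), the gene of a rod and cone disc rim protein and 1 of the rod markers, then Dhrs3 (0.961), a retinal reductase gene, and Sag (0.946), the rod arrestin gene and also 1 of the rod markers. Rbp3 was most like Cdhr1 (0.969), a photoreceptor cadherin gene, Trappc9 (0.967) and Egflam (0.966), which encodes the photoreceptor synapse protein pikachurin. Rlbp1 was most like Necab3 (0.949), Sparc (0.944) and Sars (0.942).

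For Crabp1 the most alike were Mif (0.950), Gapdh (0.939), a glycolysis gene, and Glul (0.933), which is among the Müller markers. The other members had less close neighbours, with Apoc1 (0.832), Bad (0.795) and Dnaic1 (0.793) for Abca4, and Esf1 (0.813), Speer4c (0.782) and Cep57 (0.771) for Aldh1a3. For Crabp2 they were Ntan1 (0.769), Trappc6a (0.727) and Pih1d1 (0.723), and for Aldh1a1 Coq10a (0.743), Rpp40 (0.708) and Proser3 (0.681).

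Around the 9 members stands a wider list of 57 retinoid genes, of which 41 were tested in the knockdown and 39 in the overexpression table. None passed in Nmnat1 knockdown, with 3 higher and 1 lower at an unadjusted limma p under 0.05, where 4.88% and 5.64% of all genes were. In Nmnat2 knockdown 1 fell, Scarb1, with 1 higher and 10 lower at that unadjusted p, where 3.41% and 13.4% of all genes were. None passed in Nmnat1 overexpression, with 4 lower at that unadjusted p (5.13% of all genes), and in Nmnat2 overexpression 1 fell, again Scarb1, with 6 lower (5.27%). The median log2 difference of the tested genes of the list was -0.14, -0.55, -0.11 and -0.12 in these comparisons, beside -0.0034, -0.23, -0.039 and 0.056 over all genes. Rpe65, the isomerase gene of the pigment epithelium, named here after its values were seen, was low, at 1.06 ± 0.662 ppm in Nmnat1 knockdown, 0.394 ± 0.457 ppm in Nmnat2 knockdown and 2.202 ± 1.15 ppm in scramble (SD, n = 3 each). The sum of 10 pigment epithelium markers, Rpe65 among them, went the other way in Nmnat1 knockdown. It was 88.0 to 96.8 ppm there and 34.8 to 42.2 ppm in Nmnat2 knockdown, against 60.4 to 62.0 ppm in scramble.

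Scarb1 encodes a scavenger receptor that takes up lipoproteins and carotenoids. It was at 167, 168 and 172 ppm in Nmnat1 knockdown and at 63.0, 49.1 and 55.7 ppm in Nmnat2 knockdown, against 125, 129.6 and 112 ppm in scramble. The 3 groups did not overlap and N2_2 was close to the others of its group. On the log2 scale the difference was -1.12 ± 0.16 in Nmnat2 knockdown (limma adjusted p = 0.0277) and 0.47 ± 0.16 in Nmnat1 knockdown (limma adjusted p = 0.335). Between the knockdowns it was 1.59 ± 0.16 (limma adjusted p = 0.0018), which passed in 18 of 19 other fits, all but the deposited values with a pseudocount of 20.

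The fall of Scarb1 against scramble passed in 8 of 19 other fits. Without N2_2 it passed (-1.03, limma adjusted p = 0.0002), and without C1, C2 or C3 it did not (adjusted p = 0.108, 0.136 and 0.123), nor without N1_1, N1_2 or N1_3 (0.0800, 0.0908 and 0.0869) or without N2_1 or N2_3 (0.0821 and 0.131). Under overexpression Scarb1 was at 96.6, 89.8 and 83.1 ppm with Nmnat1 and at 78.7, 90.9 and 84.8 ppm with Nmnat2, against 131, 134 and 134 ppm in the empty vector. Both arms lay wholly below an even control. This gave a log2 difference of -0.56 ± 0.10 with Nmnat1 (limma adjusted p = 0.0704) and -0.64 ± 0.10 with Nmnat2 (limma adjusted p = 0.0258). The second passed in 11 of 21 other fits, and not without v1, v2 or v3 (adjusted p = 0.0874, 0.176 and 0.156), without N1_2 or N1_3 (0.0587 and 0.0501) or without N2_2 or N2_3 of that table (0.0935 and 0.116).

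Of the 6 retinoic acid receptor genes, all were tested and none passed against a control with all libraries. Rxra was at 26.8, 24.8 and 35.4 ppm in Nmnat1 knockdown and at 8.31, 5.61 and 10.8 ppm in Nmnat2 knockdown, against 15.0, 9.68 and 15.3 ppm in scramble. Rxrg was at 22.2, 33.6 and 46.2 ppm in Nmnat1 knockdown and at 8.99, 15.5 and 9.997 ppm in Nmnat2 knockdown, against 14.6, 18.9 and 14.8 ppm in scramble. Both genes lay wholly above scramble in Nmnat1 knockdown, as did 12.8% of all tested genes. Between the knockdowns both passed, at 1.72 ± 0.31 for Rxra (limma adjusted p = 0.0213) and 1.46 ± 0.32 for Rxrg (limma adjusted p = 0.0450). In that contrast 2.06% of all genes passed. Without N1_1, N1_2, N1_3 or N2_1 the difference of Rxra did not pass (adjusted p = 0.0879, 0.0847, 0.128 and 0.0634), and that of Rxrg passed without N2_2 (adjusted p = 0.0033) and not without any other single library (0.0652 to 0.207). Without N2_2, the genes Rxra (1.08, limma adjusted p = 0.0208), Rxrg (0.99, limma adjusted p = 0.041), Rxrb (0.36, limma adjusted p = 0.0484) and Scarb1 (0.47, limma adjusted p = 0.0133) were also higher in Nmnat1 knockdown than in scramble. In that fit 4.61% of all genes were higher.

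Of the 13 other retinol and retinal oxidoreductase genes tested in the knockdown table, none passed in Nmnat2 knockdown and 7 were lower at an unadjusted limma p under 0.05, as were 13.4% of all genes. Dhrs3, which makes retinol from retinal, was at 2.97, 7.83 and 3.28 ppm in Nmnat2 knockdown and at 17.0, 13.6 and 9.69 ppm in Nmnat1 knockdown, against 12.1, 14.6 and 15.4 ppm in scramble. Nmnat2 knockdown lay wholly below scramble, at -1.49 ± 0.37 (limma adjusted p = 0.102), and without N2_2 at -1.86 (limma adjusted p = 0.0022). With overexpression it was at 11.1, 5.74 and 5.74 ppm with Nmnat1 and at 9.47, 6.41 and 7.44 ppm with Nmnat2, against 13.02, 12.7 and 13.7 ppm in the empty vector. Both arms lay wholly below the empty vector, and neither passed (limma adjusted p = 0.319 and 0.365).

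No other gene of the list passed the test with all libraries. Among the abundant ones were Fabp5 (a fatty acid and retinoic acid carrier, 556 ppm averaged over the groups), Adh5 (182 ppm), Nrip1 (84.4 ppm), Rdh10 (60.0 ppm) and Dgat1 (51.0 ppm). Rdh10, which oxidizes retinol for retinoic acid synthesis, was at 67.3, 69.1 and 65.2 ppm in Nmnat1 knockdown and 39.7, 13.8 and 38.9 ppm in Nmnat2 knockdown, against 44.1, 61.9 and 46.8 ppm in scramble. The lower level in Nmnat2 knockdown did not pass, at -0.83 ± 0.35 (limma adjusted p = 0.272). Cyp26a1, which degrades retinoic acid, was at 8.66, 9.84 and 6.31 ppm in Nmnat1 overexpression and 6.21, 10.8 and 9.92 ppm in Nmnat2 overexpression, against 2.63, 7.96 and 5.03 ppm in the empty vector, and neither arm passed (limma adjusted p = 0.618 and 0.505). Aldh1a2, Bco1 and Bco2 were under the filter.

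**Figure D4:**
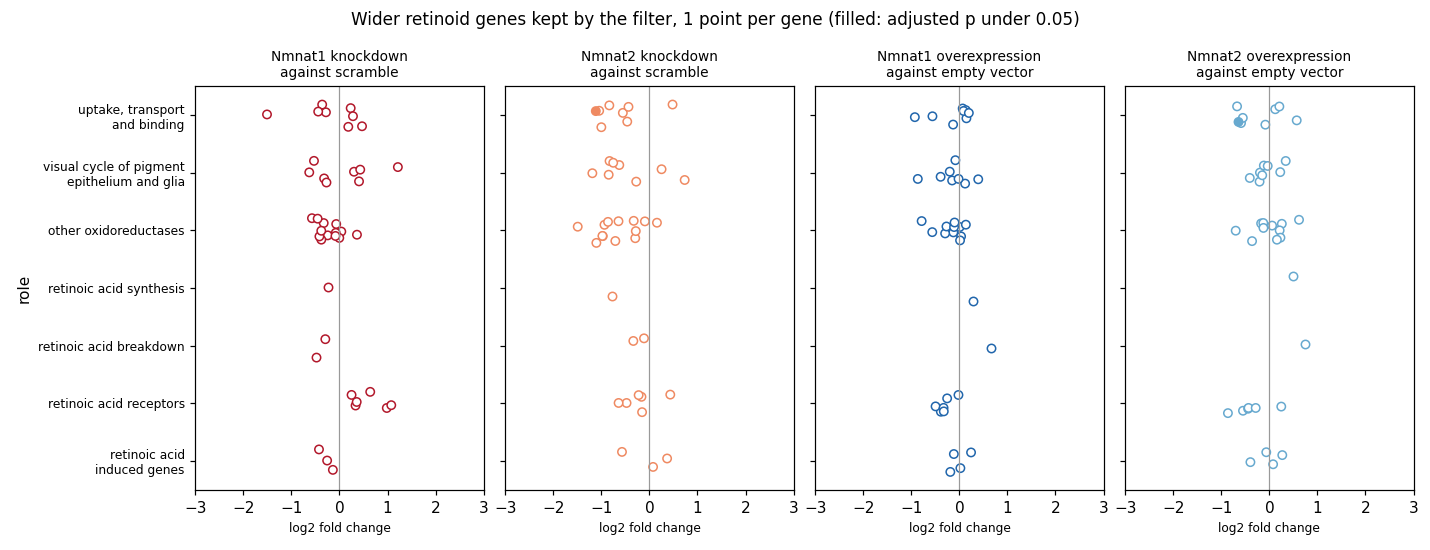
Log2 fold change of ppm + 1 of the tested genes of the wider list, 1 point per gene, by role (rows, spread vertically for sight only) and comparison (panels). Filled points passed an adjusted p of 0.05. The single filled point in each Nmnat2 panel is Scarb1, at -1.12 in knockdown and -0.64 in overexpression.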

How the data were processed

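EGFP-positive cells of electroporated mouse retinal explants were profiled by RNA-seq in 18 libraries (SMART-Seq v4 cDNA, Nextera DNA Flex libraries, per the labels' protocols), a chemistry that does not mark strand, so that reads of a gene and of one overlapping it on the other strand cannot be separated. Per the submitters' processing notes, Salmon 0.11.3, sleuth 0.30.0 and the build GRCm38.p6 were used, with no role given for any. The authors deposited 2 tables of a length-scaled expression signal named TPM, whose columns summed, in units of 1000000, to 14.4 to 29.6 (knockdown) and 17.3 to 26.2 (overexpression), so that the unit is not known beyond being scaled to length. The incomplete last line of each table was left out. Columns of the knockdown table give the group but not the sample and are named as in the table.

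Values were expressed as ppm, 1000000 times their share of the column's total. Genes with at least 1 ppm in 3 of 9 libraries were kept (22233 and 20725), and log2(ppm + 1), a scale that understates the change of low genes, was modelled in R 4.3.3 by limma 3.58.1, with 3 groups in 1 fit per table, empirical Bayes moderation with trend, two-sided tests and Benjamini-Hochberg adjustment. No test crosses the tables, which were scaled apart. Rdh8 was compared by an exact permutation test with SciPy 1.17.1 in Python 3.11.15, and figures were drawn with matplotlib 3.10.9. In genes with 1 transcript, 75.1% to 84.5% of low values per library lay within 0.1 of a whole multiple of what 1 read is worth, which gave relative depth and, for a gene of 1 kb, 11.4 to 21.2 reads per ppm. Most genes have several transcripts, so whole reads could not be recovered for nearly all of them and no count test was run. Limits from reads cover counting error only. The fit was tested on simulated data.

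The 9 members, the wider retinoid list, the cell type markers, the promoter motifs and the libraries left out were chosen with earlier results of these data known. Genes named from the wider list were those past the threshold in any of 6 comparisons and the 2 of each role with the highest mean, and for each tested member the 3 genes most like it were named. Alternatives covered pseudocounts, filters, scaling, the fit on 2 groups, trend, array weights, each library left out and, under overexpression, a block for the replicate number. Deviations of same-numbered overexpression libraries correlated at 0.027 to 0.461, and over 0.1 in 7 of 9 pairs. Of the 9 libraries, 7 correlated best with their own number. No label says that the numbers pair samples, so the block is given as an alternative only.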

Additional observations from a re-analysis of the deposited data

How the results depend on the processing

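Over 43 results for single genes and 846 alternatives, 714 kept direction and side of the threshold, 83 kept direction and no longer passed, 29 newly passed and 20 changed sign, and the causes were not tested. The counts below are of all genes past the threshold and, after the stroke, of members. With the deposited values and a pseudocount of 20 they were 2 / 0 (Nmnat1 knockdown), 0 / 0 (Nmnat2 knockdown), 17 / 0 (between knockdowns), 1 (Nmnat1 overexpression), 59 (Nmnat2 overexpression) and 2 (between arms). With no filter they were 14 / 0, 32 / 0, 1 member between knockdowns, 16 and 48, and with a mean of at least 5 ppm 50, 200, 54 and 181 against controls. Median-of-ratios scaling left 0 members in either knockdown and 1 between them, with 9 and 71 genes under overexpression, and quantile normalization gave 113, 172 / 0 and, for Nmnat1 overexpression, 41. Fits of 2 groups gave 969 / 2, 0 / 0 and 108 / 1 in the knockdown table and 2 between arms. Without trend they were 1 / 0, 0 / 0, 162 / 1, 2 and 5, and with array weights 868 / 2, 5101 / 5, 6072 / 6, 1540 / 3, 1251 / 2 and 25. Without the libraries numbered 1 they were 1666 / 3, 1222 / 3 and 38. Leaving out 1 library gave 0 to 1802 genes and 0 to 2 members in Nmnat1 knockdown, 0 to 3331 and 0 to 4 in Nmnat2 knockdown, 80 to 2904 and 1 to 4 between knockdowns, 3 to 271 and 0 to 2 in Nmnat1 overexpression, 3 to 301 and 0 to 1 in Nmnat2 overexpression, and 2 to 11 between arms. The higher and lower calls were 17 and 80 in Nmnat2 knockdown (66 and 33 by median-of-ratios, 66 and 106 by quantile), 299 and 159 between knockdowns (201 and 387, 347 and 327), 19 and 6 in Nmnat1 overexpression (8 and 1, 32 and 9) and 42 and 72 in Nmnat2 overexpression (7 and 52 for deposited values). A replicate block in the overexpression table gave 187 / 1 with Nmnat1 and 269 / 1 with Nmnat2, the member being Rdh12 (limma adjusted p = 0.0288 and 0.0318), and 7 of 9 libraries correlated best with their own number. A block was not run in the knockdown table, whose column numbers the labels do not tie to samples. The sign changes were all in values that did not pass. Aldh1a3 in Nmnat2 knockdown was 0.31 by quantile normalization and -0.75 to 0.016 with 1 library left out. In Nmnat2 overexpression, deposited values gave -0.094 for Rlbp1, -0.20 for Crabp1 and -0.039 for Aldh1a3, median-of-ratios -0.023 for Crabp1, quantile normalization -0.0081 and array weights -0.086 for Aldh1a3, and leaving out the libraries numbered 1 gave 0.012 for Abca4 and -0.13 for Aldh1a3. There, with 1 library left out, Rlbp1 lay between -0.026 and 0.44, Crabp1 between -0.28 and 0.52, Aldh1a1 between -0.32 and 0.077 and Aldh1a3 between -0.078 and 0.35. With 3 libraries a group, and at most 36 reads a library for Rdh8, small changes of that gene were not detectable.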
